A study of Homo sapiens with 54 samples.

Results

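PEA1 and PEA2 are a pair of high-grade serous ovarian carcinoma cell lines from the same patient. The labels call PEA1 platinum sensitive and PEA2 platinum resistant. This comparison covers the 12 libraries of the 2 lines in 80 µM carboplatin, out of 54 libraries of the series. Each line was harvested at 8 h and at 24 h, with 3 replicates at each time, and the libraries were chosen by line, treatment and time alone. No line carries a stated genetic change, and each line is 1 established culture, so the comparison is between 2 cultures and not between resistant and sensitive tumours in general. PEA2 was at passages 25 to 27 and PEA1 at much later ones, so the line and its time in culture cannot be told apart. In 6 of 6 cases an 8 h library and the 24 h library of its line and number share a passage. The 6 libraries of a line may therefore stem from only 3 cultures, which the labels do not state. The series text puts the replicates on 3 different days, and whether a number marks a day is not stated. The other libraries were the same lines without drug and 2 further pairs, PEO1 with PEO4 and PEO14 with PEO23.

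Carboplatin forms adducts and crosslinks in DNA, which are removed by nucleotide excision repair and by the homologous recombination and Fanconi pathways. Cells can tolerate it by taking up less drug, by binding it to thiols, by repairing more or by dying less readily. Carcinoma cells also lie on a range between an epithelial state, held together by E-cadherin, claudins and keratins, and a mesenchymal state marked by vimentin and the ZEB repressors of E-cadherin. CPT1A, named in the title of the series, carries long-chain fatty acids into mitochondria for oxidation.

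Values are TPM, a length-adjusted share of transcripts, rescaled between libraries. Differences are PEA2 minus PEA1 in log2(rescaled TPM + 1), with the standard error (SE) of a limma model that has time as a covariate. A gene was called at a Benjamini-Hochberg adjusted p under 0.05, and a negative difference means lower in PEA2. Genes below about 1 TPM differ by less on this scale than in their ratio.

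One library stood apart. PEA2 at 8 h, replicate 2, listed 9274 genes above 0 TPM, against 13420 to 15201 in the other 11, and 8661 genes were above 0 in all 12 libraries while 11659 were in the other 11. Results are given with all 12 libraries. Values from the 11 others stand beside them where a named gene's call changes, or where a called difference or a list's count moves by over 1.5 times or its balance turns. Ribosomal protein genes took 18.3 to 19.5% of the TPM in PEA1 and 18.8 to 22.1% in PEA2. All 12 libraries had their highest mean correlation with the other libraries of their own line, leaving out those listing few genes. TPM keeps no read depth, so depth is unknown.

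The lines were first compared with the markers of their labelled type. PAX8, a lineage factor of serous carcinoma, lay between 46.5 and 55.2 rescaled TPM in PEA1 and between 30.9 and 53.7 in PEA2. It was not called (difference -0.29 ± 0.15 SE, adjusted p = 0.13). WT1 reached at most 2.43 in PEA1 and 3.43 in PEA2. MUC16, which encodes CA125, was listed at 0 in all PEA1 libraries and reached at most 0.958 in PEA2. Keratins 8 and 18 were present in both lines. The other markers of this type, the adhesion protein EPCAM and keratin 7 (KRT7), were much lower in PEA1. EPCAM was 2.66 to 8.11 in PEA1 and had a median of 136 in PEA2. KRT7 was 3.25 to 14.3 in PEA1 and 1098 to 1878 in PEA2. For other cell types, 7 of 10 fibroblast markers were at 0 in all PEA1 libraries and 5 of 10 in PEA2. The summed fibroblast level was 5.24 to 17.6 in PEA1 and 0.223 to 2.69 in PEA2. Of 12 leukocyte markers, 7 were at 0 throughout PEA1 and 8 throughout PEA2, with sums of 23.7 to 75.5 and 13.7 to 32.5, which rest mainly on CD68. The endothelial sum was 0 to 1.52 in PEA1 and 128 to 193 in PEA2, and CDH5 alone supplied nearly all of it while PECAM1 stayed at or below 0.195. The mesothelial sum was 29.7 to 40 in PEA1 and 96.4 to 157 in PEA2, and CALB2, PDPN and MSLN were the members called higher. The part of these markers in the results was not tested.

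Across the table, 2606 genes were higher in PEA2 and 3251 lower, of 14052 tested (18.5% and 23.1%, or 41.7% in all). Without the library that stood apart the counts were 3857 and 3564 (27.5% and 25.4% of 14021, or 52.9% in all). Of the genes called, 5669 were called both ways of counting in the same direction and 0 in opposite directions. The median difference over all genes was -0.14 with all libraries and 0.03 without that library, so small differences near these values depend on it. The 6 PEA2 libraries lay wholly above the 6 PEA1 libraries for 1499 genes (10.7%) and wholly below for 2093 (14.9%). The lines differed over the whole range of levels, as the plot of mean levels shows.

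**Figure D1:**
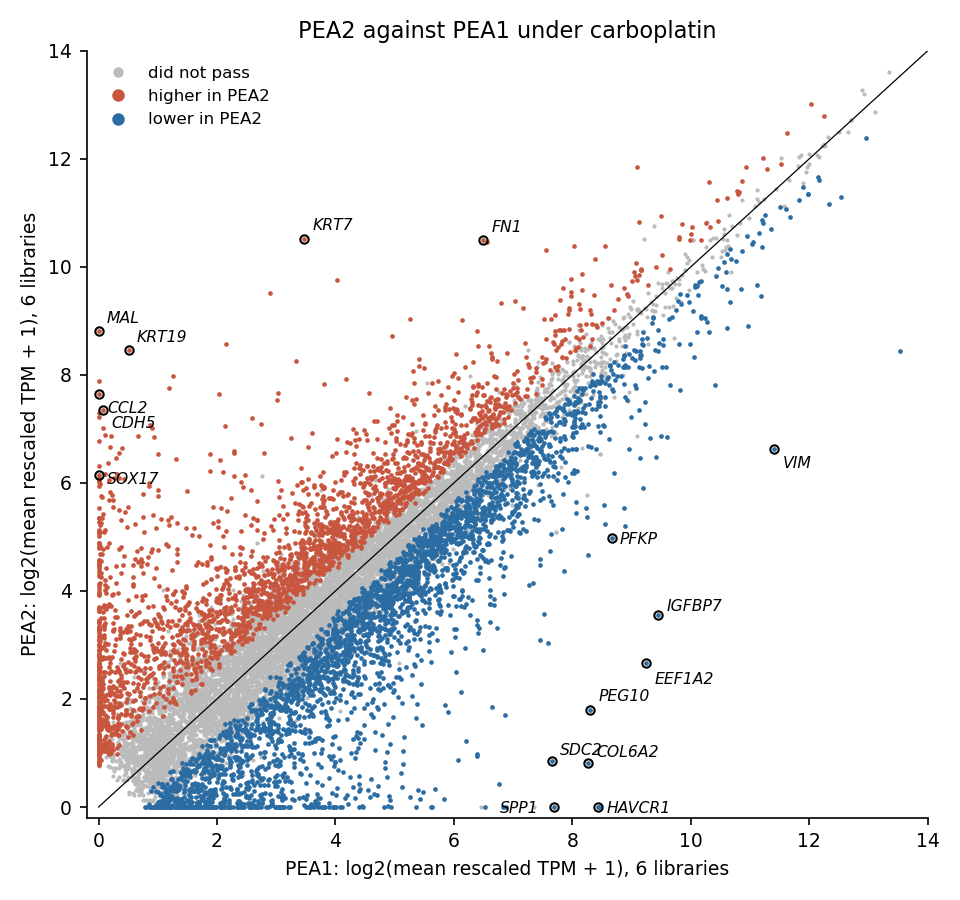
Each point is a tested gene, with the mean level in the 6 PEA1 libraries on the x axis and in the 6 PEA2 libraries on the y axis, both as log2(mean rescaled TPM + 1). Red points were called higher and blue points lower in PEA2, and the line marks equal levels. MAL, KRT19, CCL2 and SOX17 lie at the left edge, near 0 in PEA1, and HAVCR1 and SPP1 lie on the lower edge, at 0 in PEA2.

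Among genes eligible under the naming rule given later, the one furthest down in PEA2 was HAVCR1. It encodes KIM-1, a surface receptor of injured kidney tubule cells that is also found in clear cell and renal tumours. Its level was 307 to 387 rescaled TPM in PEA1, with a median of 334, and it was listed at 0 in all 6 PEA2 libraries. The difference was -8.42 ± 0.13 SE (adjusted p = 1.3e-12). In the set of 14 genes listed at 0 in every PEA2 library and at 10 or more in every PEA1 library were also SPP1, the secreted phosphoprotein osteopontin, FXYD2, a subunit of the sodium pump, NPNT, a matrix ligand of integrins, and FAT1, a protocadherin. SPP1 had a median of 210 in PEA1 and FXYD2 one of 120. The histone gene HIST1H4F, left out by that rule as multicopy, was in the set too, with a median of 372 in PEA1.

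Because HAVCR1 leads the genes absent from PEA2, the 250 bases before its transcription start are shown, from RefSeq on GRCh38.p14, chr5:157059117-157059366, minus strand, 5′ to 3′. No motif is marked in it.
HAVCR1: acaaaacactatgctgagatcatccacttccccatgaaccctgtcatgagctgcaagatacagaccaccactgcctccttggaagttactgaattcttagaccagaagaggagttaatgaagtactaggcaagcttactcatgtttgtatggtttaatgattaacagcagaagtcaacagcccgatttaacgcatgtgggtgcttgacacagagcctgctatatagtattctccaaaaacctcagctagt

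At the other end, 35 genes were listed at 0 in every PEA1 library and at 10 or more in every PEA2 library, and 41 without the library that stood apart. They included MAL, a lipid raft protein of apical membranes, FST, which binds activins, SOX17, a factor of Müllerian epithelium, MKX, a homeobox repressor, and IL1B. MAL was highest in its difference (8.78 ± 0.15 SE, adjusted p = 2.56e-12), with 324 to 613 rescaled TPM in PEA2 and a median of 440. FAIM3, an Fc receptor for IgM, ranged from 98.2 to 491 in PEA2. FST ranged from 119 to 215 and MKX from 130 to 189. CDH5, the cadherin of endothelial junctions, reached 126 to 193 in PEA2 and at most 0.351 in PEA1. These genes were present in all PEA2 libraries, the one that stood apart included.

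**Figure D2:**
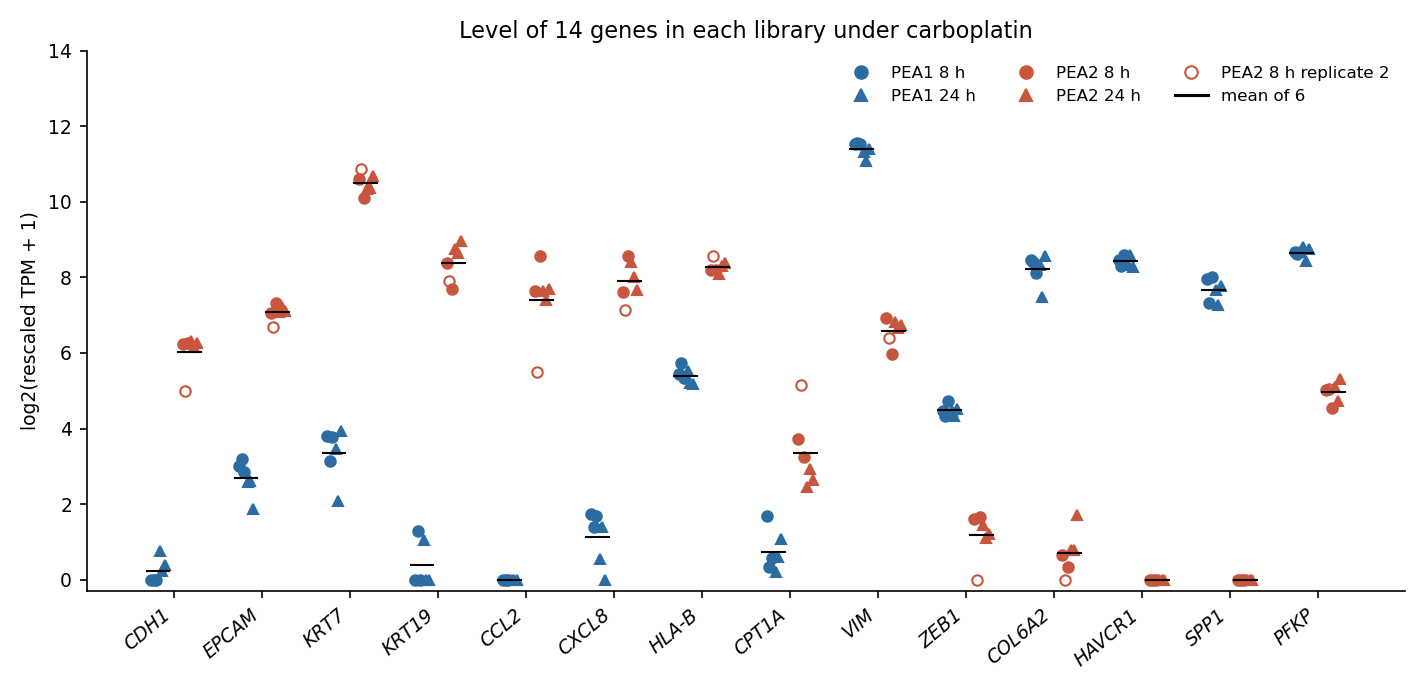
Level of 14 genes in each library as log2(rescaled TPM + 1). Circles are 8 h and triangles 24 h, blue is PEA1 and red is PEA2, the open circle is PEA2 at 8 h, replicate 2, and the bar is the mean of the 6 libraries. The lines do not overlap for any gene shown. The open circle lies below the other PEA2 libraries for CDH1, EPCAM, CCL2, CXCL8, ZEB1 and COL6A2. It lies above them for KRT7, HLA-B and CPT1A.

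Epithelial junction and keratin genes were higher in PEA2. Of 48 tested, 40 were higher and 2 lower, with a median difference of 2.78, against 18.5% higher and a median of -0.14 over all genes. E-cadherin, CDH1, was 0 to 0.703 rescaled TPM in PEA1 and 30.6 to 78.6 in PEA2 (5.8 ± 0.23 SE, adjusted p = 1.72e-09). EPCAM, an adhesion protein of epithelia, was 2.66 to 8.11 in PEA1, and in PEA2 it had a median of 136 and a highest value of 160 (4.40 ± 0.20 SE, adjusted p = 4.98e-09). KRT7, a keratin of simple and Müllerian epithelium, was 3.25 to 14.3 in PEA1 and 1098 to 1878 in PEA2 (7.13 ± 0.28 SE, adjusted p = 1.28e-09). KRT19 reached at most 1.44 in PEA1 and at least 205 in PEA2. The claudin CLDN7, the desmosomal DSP, the splicing regulator ESRP1, the protease ST14 and its inhibitor SPINT1 differed by 6.24, 5.40, 5.19, 6.30 and 6.41. KRT8 and KRT18, which pair in simple epithelium, differed by less, at 1.55 and 1.43. The members lower in PEA2 were EVPL, a cornified envelope protein, at -1.97, and the tight junction scaffold TJP1 at -0.91.

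ZEB factors silence epithelial promoters through E-boxes, and CLDN7 is shown for its place among the epithelial genes, as the 250 bases before the upstream of its 2 RefSeq starts, GRCh38.p14, chr17:7263214-7263463, minus strand, 5′ to 3′. The motif searched was CAGGTG, or CACCTG on the other strand.
CLDN7: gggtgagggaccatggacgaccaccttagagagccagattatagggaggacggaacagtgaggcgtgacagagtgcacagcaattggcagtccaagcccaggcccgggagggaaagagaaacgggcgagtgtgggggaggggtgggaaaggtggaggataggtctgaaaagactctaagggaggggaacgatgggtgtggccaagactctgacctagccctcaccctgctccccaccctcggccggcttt
These letters hold 0 matches and so no capitals. The window of the downstream start holds 4, at positions -174, -135, -20 and -9 from it, and lies within an exon. Of 35116 such windows, 17.5% hold at least 1, and a match is a description of letters, not a site of binding.

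Mesenchymal and matrix genes went both ways. Of 50 tested, 16 were higher and 21 lower in PEA2, with a median difference of -0.30 (74% called, against 41.7% of all genes). VIM, the intermediate filament vimentin, was 2174 to 2991 rescaled TPM in PEA1 and 62.3 to 120 in PEA2 (-4.81 ± 0.16 SE, adjusted p = 4.44e-10). ZEB1 was 19.2 to 25.4 in PEA1 and 0 to 2.16 in PEA2, a difference of -3.31, and ZEB2 and TWIST1 differed by -1.62 and -1.97. COL6A2 and COL6A1, chains of collagen VI, differed by -7.52 and -5.32. Other matrix genes were higher in PEA2. Fibronectin, FN1, was 65.9 to 109 in PEA1 and 1162 to 2033 in PEA2 (4.01 ± 0.11 SE, adjusted p = 8.99e-11), and COL5A1 and SPARC differed by 5.28 and 4.28. N-cadherin, CDH2, was also higher, by 1.90, so both cadherins were higher in PEA2. SNAI1 was not called (-0.28). SNAI2 leaned the other way, with 0.326 to 3.76 in PEA1. In PEA2 it was 0 in the library that stood apart and 5.23 to 12.5 in the others.

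Among 18 Müllerian and serous ovarian markers tested, 10 were higher and 5 lower in PEA2 (83.3% called, against 41.7% of all genes). WFDC2, which encodes the serum marker HE4, was at most 0.944 rescaled TPM in PEA1 and 71.4 to 276 in PEA2, a difference of 6.52. SOX17 was listed at 0 in PEA1 and was 40.8 to 83.4 in PEA2, a difference of 6.10. MSLN, mesothelin, differed by 3.51, and its level of 51 in the library that stood apart was above the 5.12 to 11.1 of the others. The folate receptor FOLR1, at -2.61, and SPP1, at -7.66, were lower. Of 32 HOX and patterning genes, 15 were higher and 3 lower (56.2% called). HOXB9 was at most 2.20 in PEA1 and 23.6 to 73.3 in PEA2.

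Interferon-stimulated genes leaned to PEA2. Of 44 tested, 19 were higher and 1 lower, with a median of 0.72 (45.5% called, against 41.7% of all genes). Over all genes 18.5% were higher and 23.1% lower. The counts were 30 and 1 without the library that stood apart, against 27.5% and 25.4% of all genes. MX2, an antiviral GTPase, was listed at 0 in PEA1 and was 17.3 to 32.6 in PEA2 (4.48 ± 0.20 SE, adjusted p = 3.5e-09). IFI27 differed by 5.03, IFITM1 by 4.23 and IFITM3, a membrane protein that blocks viral entry, by 2.02. ISG15 differed by 0.94. IFIT1 was not called with all 12 libraries (0.46, adjusted p = 0.139) and was called without that library (0.60, adjusted p = 0.0351).

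Of 19 MHC class I antigen presentation genes, 14 were higher and 0 lower in PEA2 (73.7% called, against 41.7% of all genes). HLA-B was 35.1 to 52 rescaled TPM in PEA1 and 271 to 380 in PEA2 (2.89 ± 0.12 SE, adjusted p = 2.53e-09), HLA-C differed by 1.95, and the shared light chain B2M by 1.63. The immunoproteasome subunits PSMB8 and PSMB9 differed by 2.45 and 2.40, and the peptide pump subunit TAP1 by 1.21. CD74, also counted in this list, is the invariant chain of MHC class II and differed by 3.94. Class I genes are polymorphic and alike, so reads may be split between them. Counts per gene within this family are uncertain.

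Cytokine and chemokine genes were split by member. Of 30 tested, 17 were higher and 7 lower, with a median difference of 1.82 (80% called, against 41.7% of all genes). CCL2, which recruits monocytes, was listed at 0 in all PEA1 libraries and was 44 to 379 in PEA2 (7.41 ± 0.40 SE, adjusted p = 2.28e-08), and 44 was the value of the library that stood apart. CXCL8, a neutrophil attractant, was at most 2.35 in PEA1 and 139 to 381 in PEA2 (6.78). IL1B, IL1A, CXCL5 and TNF differed by 6.29, 5.84, 5.85 and 4.98, and INHBA, a subunit of activin, by 3.89. CXCL1, CXCL2 and CXCL6, close relatives of CXCL8 in function, were lower in PEA2 by contrast, at -1.52, -3.12 and -4.95. IL6 was 162 to 237 in PEA1 and 130 to 308 in PEA2 and was not called (-0.12). Of 20 NF-kB subunits and feedback inhibitors, 5 were higher and 4 lower (45% called), or 5 and 6 without the library that stood apart. The subunits RELA, NFKB1 and REL were not called.

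**Figure D3:**
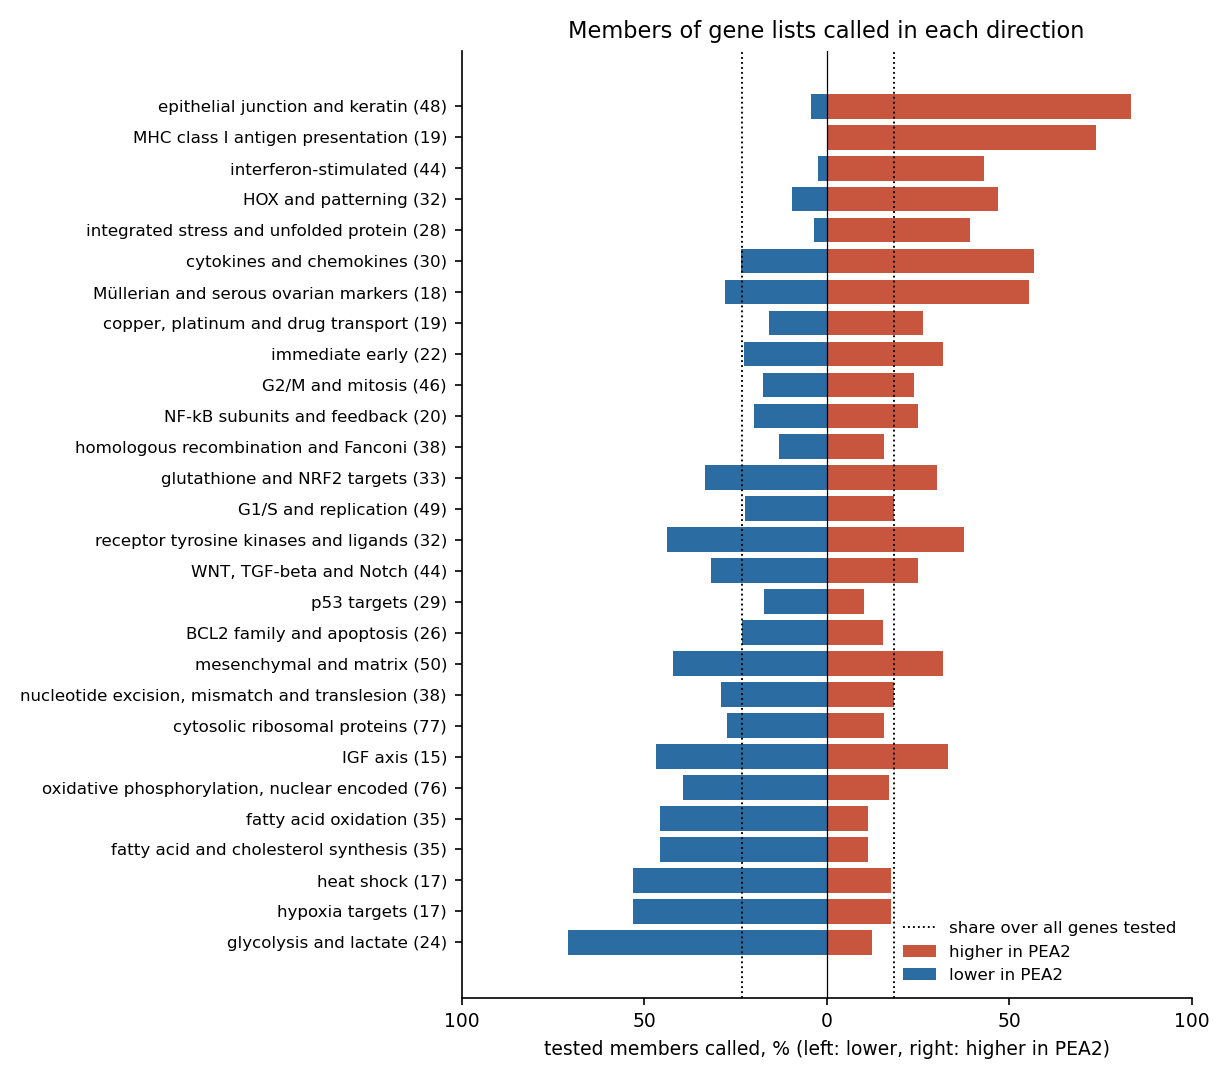
Share of the tested members of each gene list called higher (red, right) or lower (blue, left) in PEA2, in percent, with the number tested in brackets. Dotted lines mark the shares over all genes tested, 18.5% higher and 23.1% lower, and lists with at least 10 tested members are shown in the order of higher minus lower. Epithelial and MHC class I genes stand at the top and glycolysis at the bottom.

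Glycolysis and lactate genes were lower in PEA2. Of 24 tested, 17 were lower and 3 higher, with a median of -0.88 (83.3% called, against 41.7% of all genes). PFKP, a phosphofructokinase isoform, was 344 to 449 rescaled TPM in PEA1 and 22.2 to 38.7 in PEA2 (-3.70 ± 0.14 SE, adjusted p = 8.13e-10). PFKFB3, which makes the activator of that enzyme, differed by -4.31. The lactate carrier SLC16A1 differed by -1.81, whereas the other lactate carrier SLC16A3 was higher by 1.87. GAPDH differed by -1.25. LDHA differed by -0.61 (adjusted p = 0.0341) and was not called without the library that stood apart (-0.43, adjusted p = 0.0948). PFKP and PFKFB3 lie in a stretch of neighbouring genes that were lower together, described later, and of the 22 members outside it 15 were lower and 3 higher.

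CPT1A was higher in PEA2, while most of the fatty acid oxidation list was not. It was 0.145 to 2.23 rescaled TPM in PEA1 and 4.44 to 34.8 in PEA2 (2.61 ± 0.39 SE, adjusted p = 0.000177). The value of 34.8 came from the library that stood apart. Without it PEA2 ranged from 4.44 to 12.1, still above all PEA1 libraries, and the difference was 2.34 (adjusted p = 1.85e-05). CPT1B, the muscle isoform, was higher by 1.45. Of 35 fatty acid oxidation genes tested, 4 were higher and 16 lower, with a median of -0.87 (57.1% called, against 41.7% of all genes). The counts were 7 and 19 without the library that stood apart, with a median of -0.53, against 52.9% of all genes called. HADHA, a subunit of the trifunctional enzyme of beta-oxidation, had a median of 84.7 in PEA1 and 31 in PEA2, with no overlap (-1.34). ETFB, an electron carrier subunit, was 88.4 to 163 in PEA1, 0 in the PEA2 library that stood apart and 33.1 to 51.5 in the other PEA2 libraries. Its difference was -2.40 with that library and -1.46 without it. CPT2, the inner-membrane partner of CPT1A, was also at 0 in that library. It was not called with all libraries (-1.15, adjusted p = 0.0942) and was called without it (-0.53, adjusted p = 0.0232).

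Of 35 fatty acid and cholesterol synthesis genes, 16 were lower and 4 higher, against 23.1% lower and 18.5% higher over all genes, and 16 and 8 without the library that stood apart, against 25.4% and 27.5%. Members lower in PEA2 were FASN, fatty acid synthase, at -1.05, and the cholesterol enzyme LSS at -1.57. Of 76 nuclear genes of oxidative phosphorylation, 30 were lower and 13 higher, with a median of -0.45, and 31 and 20 without that library, with a median of -0.23. ATP5C1 and ATP5F1, subunits of ATP synthase, differed by -2.37 and -1.57. Hypoxia targets gave 9 lower and 3 higher of 17, and 9 and 5 without it. Heat shock genes also gave 9 lower and 3 higher of 17, and 6 and 4 without it. EPAS1, the oxygen-regulated factor HIF-2alpha, differed by -2.61, while EGLN3, one of the hydroxylases that mark it for loss, differed by 5.63. HSPD1 and HSP90AA1, both chaperones, differed by -1.30 and -1.09.

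Of 29 p53 targets, genes induced after DNA damage, 3 were higher and 5 lower with all libraries (27.6% called, against 41.7% of all genes), and 10 and 7 without the one that stood apart, against 52.9% of all genes. CDKN1A, the cell cycle inhibitor p21, was not called with all libraries (0.40, adjusted p = 0.596) and was called without that library (1.01, adjusted p = 0.00606), which listed it at 0. PHLDA3, TP53I3 and CCNG1 were lower, at -2.22, -2.84 and -2.84, and BBC3, which encodes PUMA, was higher at 1.56. MDM2 was not called (-0.05). Of 26 BCL2 family and apoptosis genes, 4 were higher and 6 lower, or 7 and 6 without that library, with BIK at 3.71 and BCL2 at -2.07.

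Repair genes showed no common direction. Of 38 homologous recombination and Fanconi genes, 6 were higher and 5 lower (28.9% called, against 41.7% of all genes). The counts were 13 and 8 without the library that stood apart, against 52.9% of all genes called. RBBP8, which starts end resection as CtIP, was 52.3 to 79.1 in PEA1 and 144 to 327 in PEA2 (2 ± 0.18 SE, adjusted p = 2.93e-06), and the Fanconi-associated nuclease FAN1 differed by -1.56. BRCA1 was not called with all libraries (0.32, adjusted p = 0.086) and was called without that library (0.40, adjusted p = 0.0251), and BRCA2 was called in neither. Of 38 nucleotide excision, mismatch and translesion genes, 7 were higher and 11 lower (47.4% called). ERCC1, an excision nuclease subunit, differed by -1.14 (adjusted p = 0.0055), with overlapping ranges of 400 to 1018 and 145 to 455. MSH3, a mismatch recognition protein, was higher at 1.44. SLFN11, a helicase whose loss goes with resistance to DNA-damaging drugs, was 1.07 to 3.88 in PEA1 and 0 to 0.584 in PEA2 (-1.54 ± 0.22 SE, adjusted p = 0.000136).

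Among 19 transport genes, 5 were higher and 3 lower (42.1% called, against 41.7% of all genes). The counts were 7 and 5 without the library that stood apart, against 52.9% of all genes called. The copper importer SLC31A1, a route of platinum entry, was 10.1 to 14.1 in PEA1 and 7.10 to 12.7 in PEA2 and was not called (-0.11). The copper pumps went in opposite directions, with ATP7A at 1.04 and ATP7B at -0.98, both at low levels. ABCG2, a drug exporter, was higher by 1.57, and ABCB1 was at or near 0 and was not tested. Of 33 glutathione and NRF2 genes, 10 were higher and 11 lower (63.6% called). The glutathione transferase GSTM3 differed by 3.46, the thioredoxin reductase TXNRD1 by 1.60, the quinone reductase NQO1 by -1.16 and the aldo-keto reductase AKR1C3 by -4.44. Copies of the GSTM and AKR1C genes are alike, and their counts are uncertain. MT2A, the metallothionein with the highest level, was not called (-0.02), and 1 of 6 metallothioneins, MT1X, was (-2.17). MT1X was at 0 only in the library that stood apart, its difference was -1.37 without it, and at 24 h it was not called (-1.01, adjusted p = 0.476).

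Of 28 integrated stress and unfolded protein genes, 11 were higher and 1 lower in PEA2 (42.9% called, against 41.7% of all genes). The counts were 16 and 1 without the library that stood apart, against 52.9% of all genes called. ATF4, the central factor, differed by 0.72, the asparagine synthetase ASNS by 1.87, PHGDH, the first enzyme of serine synthesis, by 1.77 and the secreted GDF15 by 3.71. DDIT3 and HSPA5 were not called (0.02 and 0.03). Of 15 IGF axis genes, 5 were higher and 7 lower (80% called). IGFBP7 was 559 to 852 in PEA1 and 5.33 to 18.9 in PEA2 (-5.97), IGFBP3 was higher by 2.53, and the receptor IGF1R and its adaptor IRS1 were lower, at -1.48 and -4.33.

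Growth factor and developmental signalling genes were called in both directions. The share called was 81.2% of receptor tyrosine kinases and ligands, 56.8% of WNT, TGF-beta and Notch genes and 54.5% of immediate early genes. Over all genes it was 41.7%, or 52.9% without the library that stood apart. Of 32 receptor tyrosine kinases and ligands, 12 were higher, ERBB3 and AREG among them at 2.33 and 3.03, and 14 lower, with FGFR4 at -4.24 and NRG1 at -2.46. Of 44 WNT, TGF-beta and Notch genes, 11 were higher, led by WNT7A at 5.63, and 14 lower, led by WNT2B at -4.22. Of 22 immediate early genes, 7 were higher and 5 lower, or 11 and 5 without the library that stood apart, and MYC differed by -1.11. G1/S and replication genes gave 9 higher and 11 lower of 49 (40.8% called), and 18 and 11 without that library. G2/M and mitosis genes gave 11 and 8 of 46 (41.3% called), and 15 and 7 without it. The shares called of both cell cycle lists, with all libraries, were near that of all genes. CCND2, cyclin D2, was at most 0.112 in PEA1 and 21.8 to 40.9 in PEA2 (4.78). Ribosomal protein genes gave 12 higher and 21 lower of 77 with all libraries, 20 and 17 without the one that stood apart and 19 and 17 without rescaling, so their balance has no fixed direction.

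Some genes that differed stood side by side. Tested genes were put in the order of the RefSeq annotation of GRCh38, which gives neighbours only, since the values were made on hg19. Stretches were taken where at least 80% of 25 neighbouring tested genes were called in the same direction. There were 8, of which 6 were lower and 2 higher in PEA2, with 324 genes in all. The longest ran from TUBB8 to PLXDC2. Of its 74 tested genes 66 were lower and 2 higher, with a median of -2.33, and in 61 the libraries of the lines did not overlap (25.6% over all genes). The stretch was chosen on these calls, so its counts are a description. It holds PFKP, PFKFB3, AKR1C3, ATP5C1, VIM and the replication factor MCM10. In untreated libraries, without those listing few genes, the median over the stretch was -2.23, and in the other pairs in drug it was 0.28 for PEO4 against PEO1 and -0.27 for PEO23 against PEO14. VIM alone, with all treated libraries, differed by -0.57 between PEO4 and PEO1 and by -4.07 between PEO23 and PEO14. Its PEA difference was not called against that of PEO23 and PEO14 (limma contrast -0.61, adjusted p = 0.567). The next in length, from RPH3AL to MINK1, had 54 lower of 67, and the stretch from RIMS1 to ZNF292 had 32 higher of 40, with a median of 1.62. Copy number was not analysed here.

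**Figure D4:**
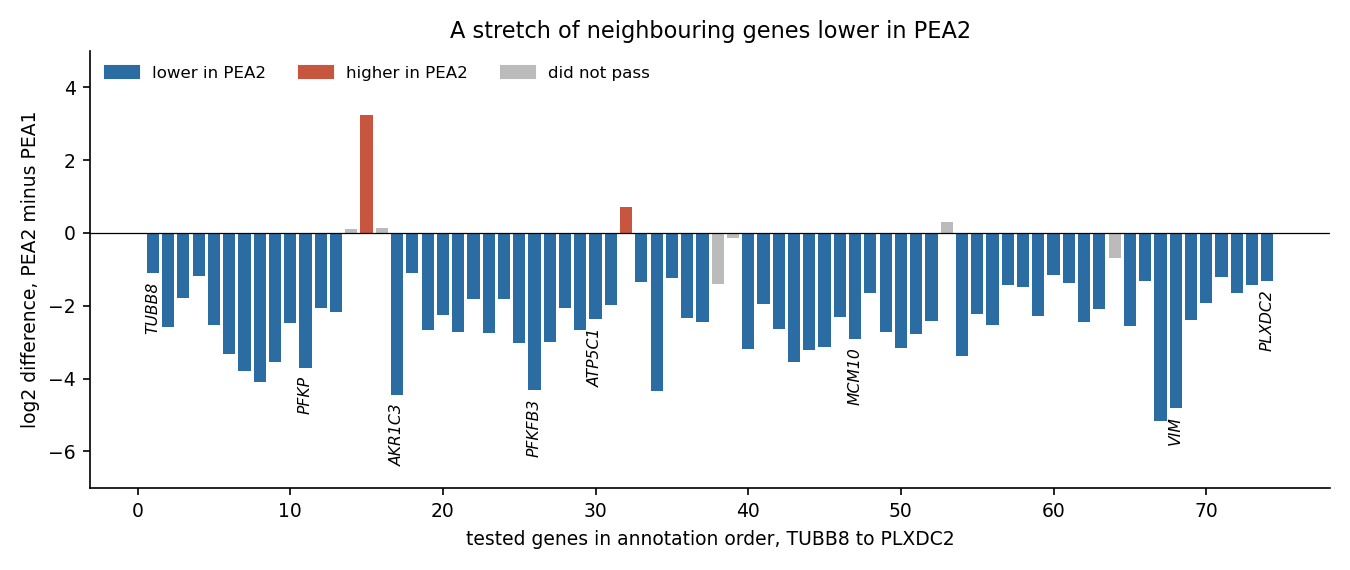
Difference of each tested gene from TUBB8 to PLXDC2 in annotation order, as log2 PEA2 minus PEA1. Blue bars were called lower and red bars higher in PEA2, and grey bars did not pass. Of the 74 bars 66 are blue and 2 are red.

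The line difference was then taken at each time. PEA2 was higher for 1625 genes and lower for 2240 at 8 h (11.6% and 15.9%, or 27.5% in all), and for 1714 and 1785 at 24 h (12.2% and 12.7%, or 24.9% in all). Of the genes called, 2707 were called at both times in the same direction, 70% of those at 8 h and 77.4% of those at 24 h, and 1 was called in opposite directions. Across genes the differences at the 2 times had a Pearson r of 0.84, as a description, since genes are not replicates and share libraries. The 2 times share passages and may come from the same cultures. For epithelial genes 40 were higher and 2 lower at 8 h, and again 40 and 2 at 24 h.

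**Figure D5:**
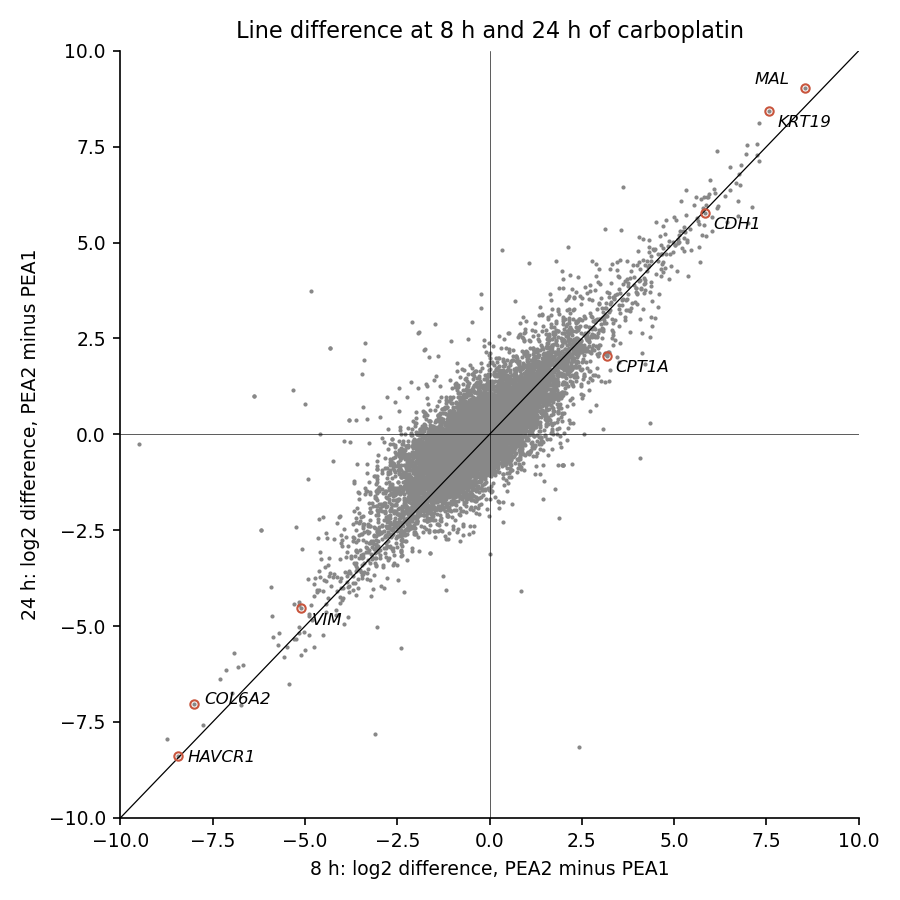
Difference between the lines at 8 h (x axis) and at 24 h (y axis) for each tested gene, as log2 PEA2 minus PEA1, with the line of equal differences. Points lie along the line from HAVCR1 at -8.45 and -8.39 to MAL at 8.54 and 9.02.

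No gene passed the test of the difference between the times with limma (0 of 14052, or 0%), and 355 had an unadjusted p under 0.05 (2.53%). Without the library that stood apart the count was again 0, with 506 at an unadjusted p under 0.05, while limma with array weights called 411. CPT1A differed by 3.18 at 8 h and 2.05 at 24 h, and these values were not shown to differ.

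The lines were also compared without drug, to ask whether the line difference in carboplatin was another one. The difference in drug minus the difference untreated was called for 98 of 15437 genes (0.635%), 4 above 0 (0.0259%) and 94 below (0.609%). Its median over all genes was -0.50. Untreated and treated libraries share no passage (PEA2 at 23 and 24 against 25 to 27, and PEA1 also at earlier passages untreated), and ribosomal protein genes took 6.03 to 13.5% of their TPM against 18.3 to 22.1%, so the drug cannot be told apart from these. Untreated PEA1 had 2 libraries that listed few genes, and without those and the treated library that stood apart, 0.693% of 15300 genes passed, 31 above 0 (0.203%) and 75 below (0.49%), at a median of 0.02, with 1 untreated PEA1 library taken to vary like the other groups. The count was 11 without untreated PEA2 replicate 3 and 2750 without untreated PEA1 replicate 1, so it rests on the untreated libraries. Without those few-gene libraries, 38 of the 48 epithelial genes were higher and 2 lower in untreated PEA2, and 13 of the 24 glycolysis genes lower, against 13.5% higher, 10.8% lower and 24.3% in all over the genes tested. On these libraries the difference of IL1B was 6.29 in drug and 2.54 untreated, and that of IL1A 5.95 and 3.26 (adjusted p of the change = 0.000391 and 0.00575). MAL, at 8.78 and 6.63, and IGFBP7, at -6.05 and -4.25, passed in the same way (adjusted p = 0.000824 and 0.0331). With all libraries none of these 4 passed (adjusted p = 0.114 for IL1B, 0.203 for IL1A, 0.275 for MAL and 0.285 for IGFBP7). The difference of CPT1A was 2.34 in drug and 2.26 untreated on these libraries, and its change with drug was not called.

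Against the other pairs, 1047 of 16275 genes passed in the same direction against both (6.43%), 518 with the PEA difference the higher one and 529 (3.25%) with it the lower. Without the libraries listing few genes the count was 3048 of 15823 (19.3%), 1642 (10.4%) and 1406 (8.89%). The median contrast over all genes was 0.12 against PEO4 and PEO1 and -0.34 against PEO23 and PEO14, and -0.01 and -0.02 without those libraries. Of the 48 epithelial genes, 23 passed higher and 0 lower, against 3.18% higher over all genes, and 34 and 2 without those libraries. For the mesenchymal list 13 passed higher and 6 lower of 50, and 19 and 11 without them, and for cytokines 8 and 1 of 30, and 14 and 2. KRT7 differed by -2.79 between PEO4 and PEO1 and by -0.39 between PEO23 and PEO14, against 7.13 here. ALDH1A3, a retinaldehyde dehydrogenase, was 4.88 to 9.43 rescaled TPM in PEA1 and 592 to 856 in PEA2 (6.65), with -5.00 and -0.90 in the other pairs. F3, tissue factor, differed by 6.45 here and by -2.54 and -0.90 there, and ANKRD1, a target of YAP, by 5.76 here and -1.24 and -2.48 there. The PEA difference lay below those of both other pairs for COL6A2, HAVCR1, EEF1A2, a translation factor normally kept to brain and muscle, RARRES2, which encodes chemerin, and BEX4. The interferon list gave 1 gene higher and 1 lower against both pairs with all libraries, and 3 and 7 without those listing few genes. The MHC class I list gave 0 and 0, and 4 and 0.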

How the data were processed

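RNA of the PEA1 and PEA2 lines was sequenced as stranded total RNA, with an intended depth of over 50 M read pairs of 75 bases, per the labels' protocols. The authors deposited gene-level TPM for 25435 genes. Per the submitters' processing notes, bcl2fastq 2.18 and build hg19 were used. No aligner, annotation or strand setting of the counting is given in the sources used here, and antisense genes are therefore uncertain. Exact zeros can be failed estimates. The symbols of 28 genes had become dates and were not named. The dose is 80 µM in the treatment protocol and mM in the series text, and untreated libraries are at time 0 in the labels and vehicle at 24 h in the series text.

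TPM were rescaled by the median ratio over 8661 genes above 0 in all 12 libraries, and log2(value + 1) was fitted with limma 3.58.1 in R 4.3.3 (line and time, mean-variance trend) for genes that reached 1 TPM in 3 or more libraries. Lines at each time, their interaction, untreated libraries and the other pairs used group means. P-values measure the spread between these libraries. The fit was tested on simulated data with independent libraries, so shared cultures and a library listing few genes were not part of it. It called 6 of 13467 genes simulated without a difference. Of 50 genes each at true differences of -2, -1, 1 and 2 it called 37, 19, 21 and 40. Sequences came from RefSeq, GRCh38.p14, with an entry for 89 of 134 named genes. Named genes were the 12 largest differences each way without overlap and at a mean of 20 or more in the higher line (leaving out antisense, LOC, LINC, small RNA and multicopy genes), the 3 called members with the smallest adjusted p in each list, any called in the interaction, 21 genes set by name, and the 5 largest each way against the other pairs. The comparison, the lists and this rule were chosen with earlier results of these data known. Some members of the lists and of the named genes are not reported here. Other genes named were chosen after their values were seen.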

Additional observations from a re-analysis of the deposited data

Results flagged for a closer look

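The line difference under carboplatin differed from that without drug for 98 genes, by a limma contrast of the 2 differences. AKR1C3 was among them, with a difference in drug minus untreated of -5.18 (adjusted p = 0.0344), and it did not pass without the libraries that listed few genes (adjusted p = 0.204).

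The PEA difference differed from that of both other pairs, by the same kind of contrast, for 1047 genes. Against PEO4 and PEO1 the contrast was 9.98 for KRT7, 11.67 for ALDH1A3, 8.95 for F3, 8.51 for KRT81 and 7.08 for ANKRD1, and against PEO23 and PEO14 it was 7.57, 7.58, 7.31, 7.62 and 8.32 in the same order. KRT81 has near-identical relatives among the hair keratins, so its count is uncertain. For genes lower in PEA2, the contrast against PEO4 and PEO1 was -7.98 for HAVCR1, -10.78 for COL6A2, -6.85 for EEF1A2, -10.49 for RARRES2 and -6.12 for BEX4, and against PEO23 and PEO14 it was -8.1, -7.09, -8.49, -8.3 and -8.87.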

How the results depend on the processing

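Of the 124 genes taken by the naming rule and called, 0 changed direction in the 24 settings and 81 kept their call in all of them, while 43 lost it in at least 1, mostly when all 54 libraries shared 1 estimate of the spread. WT1, SLC31A1, MDM2, SNAI1 and MT2A, called with neither set of libraries, changed sign without the library that stood apart. With all 54 libraries in 1 fit, 846 genes were higher and 687 lower, 708 differed at 8 h and 690 at 24 h. The fit of all 54 also gave 1 for the interaction of line and time, 60 in drug against untreated and 673 against both other pairs. Without the library listing few genes, 24 h gave 5387 and the other pairs 1073. Without every library of the 54 listing fewer than 12000 genes, the other pairs gave 3048. Array weights, whose estimate did not converge, gave 7522 at 8 h, 9102 at 24 h, 411, 19 and 1774. The count in drug against untreated was 149 without rescaling, 48 with a pseudocount of 0.1, 159 without a filter and 3 where 6 or more libraries had to reach 1 TPM.

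Leaving out 1 library at a time gave 2323 to 3857 genes higher, 2824 to 3564 lower, 2690 to 4913 at 8 h, 2478 to 5387 at 24 h, 0 to 2 for the interaction, 11 to 2750 against untreated and 928 to 1171 against the other pairs. The largest counts for the line difference, higher or lower, and at each time came without PEA2 at 8 h, replicate 2. The 2750 came without untreated PEA1 replicate 1, the only untreated PEA1 library that listed over 12000 genes. The cause was not tested.

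Deviations of same-numbered libraries of the 2 lines had r from -0.281 to 0.285 over 12 pairs, within and across times. Both at 24 h, replicates 1, 2 and 3 gave -0.102, 0.285 and 0.251. Differently numbered libraries of the 2 lines gave -0.342 to 0.34 over 24 pairs. Same-numbered 8 h and 24 h libraries of a line gave -0.217 to 0.085 over 6 pairs. The numbers were not taken to pair samples, but with 3 libraries in a group these values cannot exclude pairing. The replicate block gave 2502 higher, 3159 lower, 3468 at 8 h, 3137 at 24 h, 0 for the interaction, 79 against untreated and 1097 against the other pairs. A block within each line gave 2711 and 3433. Means of the 8 h and 24 h libraries of the same line and number, 3 against 3, gave 2439 and 3103. The share of calls that were higher was 44.5% with rescaling, 49.6% without and 52% without the library that stood apart. Depth could not be weighed, since TPM keeps none.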

Other observations

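Genes of kidney tubule and clear cell carcinoma were looked up after HAVCR1 and FXYD2 had been seen. UGT2B7, a glucuronidating enzyme, had 14.4 to 41.1 rescaled TPM in PEA1 and at most 0.484 in PEA2. GGT1, which breaks down extracellular glutathione, had 33.9 to 56.5 in PEA1 and at most 0.658 in PEA2. CLDN16, a claudin of the kidney, had 51.3 to 88.5 in PEA1 and at most 2.33 in PEA2. PAX2 was listed at 0 in both lines. ESR1, the oestrogen receptor gene, was listed at 0 in both lines too.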
